A study of Bos taurus with 33 samples.

Results

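The genes described here encode the constitutive subunits of the proteasome, their inhibitor and assembly factors, and the ubiquitin-conjugating (E2) enzymes. They were taken as every gene in the array annotation whose symbol begins with PSMA, PSMB, PSMC, PSMD, PSMF, PSMG or UBE2, except the 5 genes PSMB8, PSMB9, PSMB10, UBE2L6 and UBE2C. This gave 57 of 9155 named genes. They comprise 6 subunits of the 20S alpha ring (PSMA1, PSMA3, PSMA4, PSMA5, PSMA6 and PSMA7) and 7 of the beta ring (PSMB1 to PSMB7). The 19S regulatory particle is represented by 6 ATPases (PSMC1 to PSMC6) and 10 genes with the PSMD prefix, among which PSMD5, PSMD9 and PSMD10 encode factors that assemble the particle rather than stay in it. PSMF1, the 3 chaperones PSMG1, PSMG2 and PSMG3, and 24 E2 genes complete the set. For the 12 of the 57 genes with several probe sets, values are those of the one with the highest average signal across the 33 arrays.

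The proteasome degrades proteins that carry chains of ubiquitin. Ubiquitin is activated by an E1 enzyme, passed to an E2 enzyme and attached to the target with the help of an E3 ligase. The 19S particle then binds the chain, removes it, unfolds the protein and feeds it into the barrel of the 20S core, whose catalytic sites lie on PSMB5, PSMB6 and PSMB7. Interferons are known to induce the replacement subunits PSMB8, PSMB9 and PSMB10, which form the immunoproteasome and alter the peptides offered to T cells. The conceptus of cattle secretes interferon tau, a type I interferon, into the uterus before it attaches, and human interferon alpha signals through the same kind of receptor.

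Endometrial expression was profiled in 33 Bavarian Simmental heifers, all synchronised with the prostaglandin analogue cloprostenol, with 1 array per animal. In the biopsy experiment, 3 heifers received a lipid extrudate releasing human interferon alpha (IFNA) in the uterine horn on day 14 of the cycle. A further 3 received the extrudate alone (placebo) and 3 received phosphate-buffered saline (PBS), and on day 16 the uterus was flushed and about 6 biopsies per animal were taken from the caudal horn and combined. In the pregnancy experiment, heifers inseminated with semen of a single bull and found pregnant were slaughtered on day 12 (n = 5), day 15 (n = 3) or day 18 (n = 4). Cyclic controls were given sperm-free supernatant instead and slaughtered on the same days (n = 5, 3 and 4). Intercaruncular endometrium was then taken, from the distal horn on day 12, the medial horn on day 15 and the caudal horn on day 18. The conceptus had been removed or flushed out before sampling.

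Values are log2 levels per probe set, and differences are log2 differences ± standard error of the limma fit, with Benjamini-Hochberg adjusted p-values over all 24016 probe sets. A gene is said to rise or fall where its adjusted p was below 0.05. The values appeared to have been normalised separately for the biopsies and for each slaughter day, with medians of 6.64, 6.85, 6.49 and 7.25, so levels are compared within these sets of arrays unless stated. Over the 33 arrays the 6 stromal markers lay between 9.21 and 14.0, and of the 6 epithelial markers KRT8 lay between 4.21 and 5.69 and the others between 6.81 and 12.9. The 4 trophoblast genes measured lay between 2.63 and 5.93, with IFNT2, which encodes interferon tau, at 4.55 to 5.93. The GAPDH 3′ signal exceeded its 5′ signal by 1.03 to 3.87 log2 in the biopsies and by -0.16 to 0.56 in the slaughter samples, a difference that serves as a measure of RNA integrity. In bulk tissue, a change in the number of cells of a type and a change in RNA per cell cannot be told apart.

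Of the 29 genes of the 20S core and 19S particle, counting PSMD5, PSMD9 and PSMD10, 12 rose in pregnant animals on day 15 and 13 on day 18, and none fell. On day 15, 14 of the 57 genes rose and none fell, and on day 18, 21 rose and 3 fell. Over all 9155 genes, 4.04% rose and 2.34% fell on day 15, and 12.6% rose and 10.4% fell on day 18. The median difference of the 57 genes was 0.13 on day 15 and 0.16 on day 18, against -0.02 and -0.01 for all genes. The differences were small apart from that of PSMF1: the other rises ran from 0.16 to 0.57, which is at most 1.48-fold. The day 15 count fell to 8 without pregnant replicate 3, and to 9 without pregnant replicate 1 or without cyclic replicate 2. Losses on leaving out 1 array were followed by gene for 10 of the 14 genes called on day 15 and 14 of the 24 on day 18. Of these, 5 and 9 were called in every such fit. Without cyclic replicate 2, 8 of the 14 calls of day 15 and 16 of the 24 of day 18 were kept, and genes not followed were among those lost. A fit to the 6 arrays of day 15 alone called 3 genes (PSMF1, PSMD14 and PSMB2), and a fit to the 8 arrays of day 18 alone called 15, all of them higher.

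Individual animals were also compared. On day 15 every pregnant array lay above every cyclic array for 26 of the 57 genes and below for 4, where 13% and 14% of all genes separated in these directions. On day 18 the counts were 23 above and 2 below, against 12.8% and 11.7% of all genes. On both days 18 genes had all pregnant arrays above all cyclic arrays, as had 6.83% of all genes. Of the genes that rose, 12 did so on both days (3.47% of all genes did), which is 85.7% of those of day 15 and 57.1% of those of day 18. Over all genes the shares were 85.9% and 27.7%. These 12 are PSMA1, PSMA3, PSMA5, PSMA7, PSMB2, PSMB4, PSMB6, PSMC3, PSMC4, PSMD14, PSMF1 and UBE2G2, where members outside the naming rule are given to account for the whole set. Only PSMB3 and PSMB7 were called on day 15 and not on day 18, with day 18 differences of 0.28 and 0.14, and no member's pregnancy effect differed between days 15 and 18 in the test of that change.

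**Figure D1:**
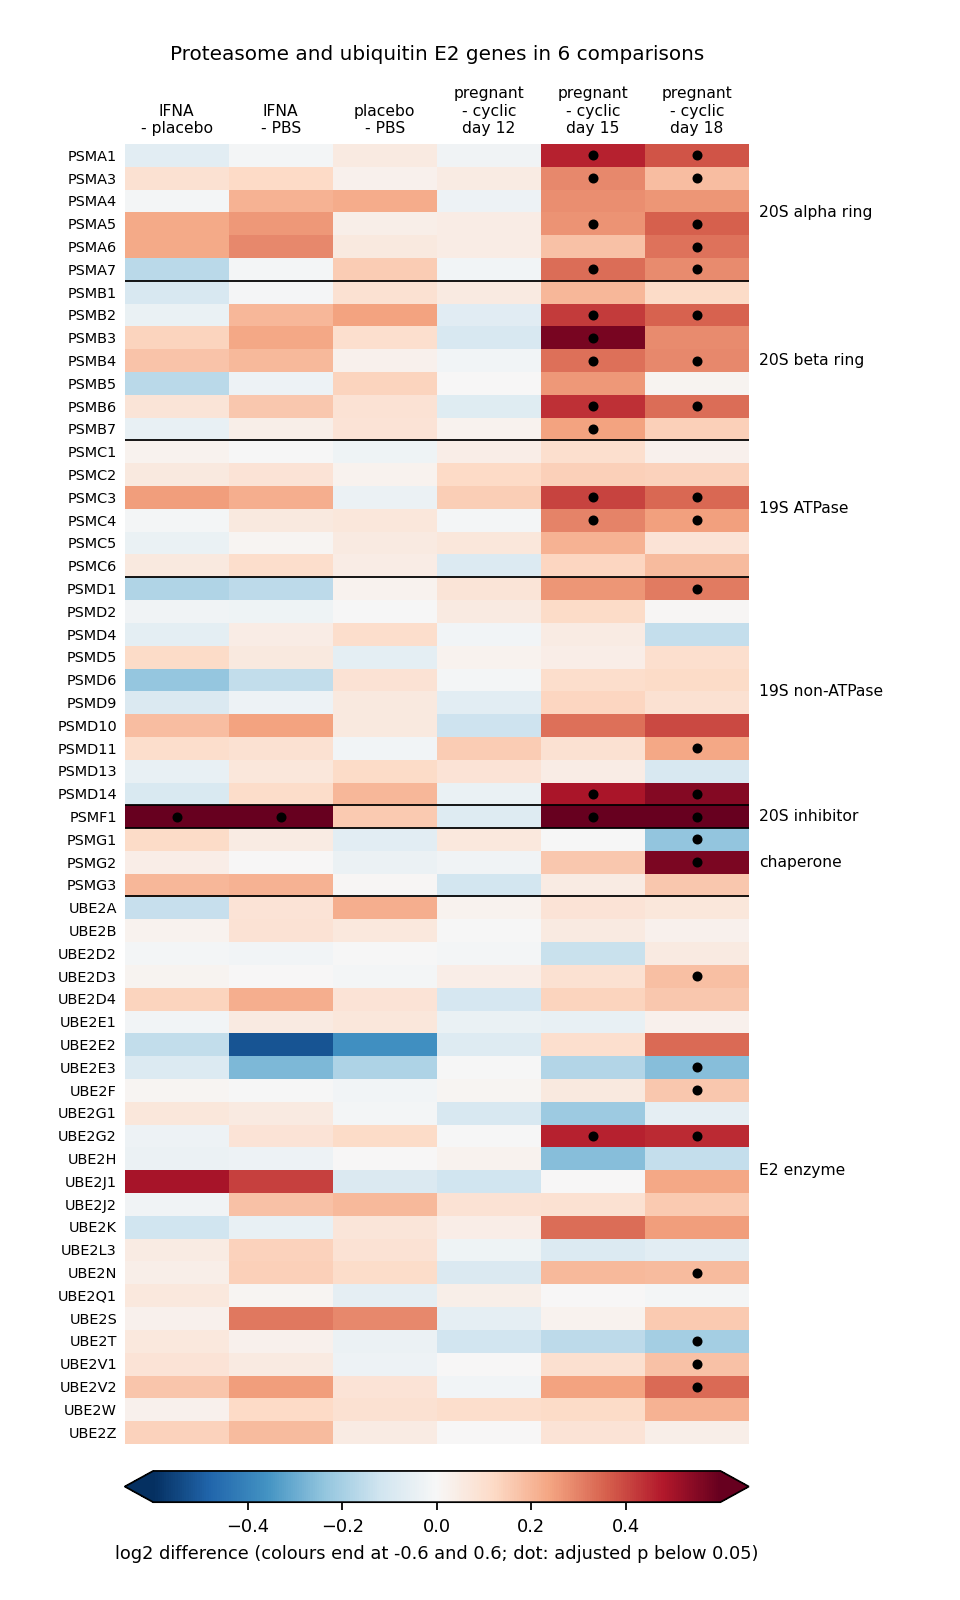
Log2 differences of the 57 genes (rows, grouped by role) in 6 comparisons (columns), with red for higher and blue for lower in the group named first, colours ending at -0.6 and 0.6, and a dot where the adjusted p was below 0.05. The dots lie in the pregnancy columns of days 15 and 18, with 14 and 24 genes, and in the interferon columns at PSMF1.

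Other features of the tissue moved with pregnancy on the same days. On day 15, the epithelial markers CDH1 and CLDN4 rose by 0.64 ± 0.094 and 1.32 ± 0.195 (2 of 6 rose). KRT18 and EPCAM averaged lower in pregnant than in cyclic arrays (9.78 against 10.12 and 12.18 against 12.22). KRT8 and KRT19 averaged slightly higher (4.90 against 4.83 and 8.74 against 8.59). The mean of the 6 was 9.53 to 9.63 in pregnant against 9.21 to 9.31 in cyclic arrays. On day 18, 2 of the 6 epithelial markers rose and 1 fell, and the ranges were 9.94 to 10.2 against 9.80 to 10.0. Of the 4 endothelial markers 1 fell on day 15 and 3 fell on day 18, when their mean was 6.998 to 7.28 in pregnant and 7.40 to 8.08 in cyclic arrays. Of 8 proliferation markers 2 rose on day 18, among them CCNB2 by 2.14 ± 0.184, and the list means were 6.10 to 7.14 in pregnant and 6.00 to 6.06 in cyclic arrays. CCNB1 and CDK1 averaged lower in pregnant than in cyclic arrays of day 18 (7.73 against 8.29 and 7.56 against 7.62), and the others averaged higher. On day 15 none of the 8 passed (CCNB1, -1.24 ± 0.381), with means of 4.98 to 5.26 against 5.199 to 5.37. The leukocyte list had 1 of 6 markers higher on day 18 (CSF1R, 0.85 ± 0.116), with list means of 7.63 to 8.01 against 7.18 to 7.52. The mean of the 4 trophoblast genes was 3.97 to 4.08 in pregnant and 3.75 to 3.94 in cyclic arrays on day 15, and 4.40 to 4.50 against 4.34 to 4.50 on day 18, with none of the 4 past the threshold. The part of these shifts in the proteasome results was not tested.

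All 13 subunits of the 20S core had positive differences on both days. On day 15, 9 of the 13 rose (median 0.29) and on day 18, 8 of the 13 rose (median 0.28). PSMB3, a non-catalytic beta subunit, had the largest rise of the core on day 15, at 0.57 ± 0.158 (adjusted p = 0.0366). Its cyclic arrays read 9.63, 9.52 and 9.15 and its pregnant arrays 10.09, 9.81 and 10.11. On day 18 the cyclic arrays read 10.23, 10.24, 10.26 and 9.62 and the pregnant arrays 10.24, 10.48, 10.21 and 10.55. The groups did not overlap on day 15 but did on day 18, where the difference was 0.28 ± 0.136. The day 15 call was lost without cyclic replicate 2 or 3 and without pregnant replicate 1 or 3 (adjusted p = 0.0759 to 0.176).

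PSMA1, an alpha ring subunit, read 9.18, 9.16 and 9.07 in the cyclic arrays of day 15 and 9.69, 9.36 and 9.74 in the pregnant arrays, a rise of 0.46 ± 0.124 (adjusted p = 0.0318). On day 18 it read 9.60, 9.35, 9.47 and 9.46 in cyclic and 9.54, 9.78, 10.25 and 9.82 in pregnant arrays, a rise of 0.38 ± 0.107 (adjusted p = 0.0163). The lowest pregnant array of day 18 lay below the highest cyclic array. The day 18 call was lost without pregnant replicate 3, the highest (0.24, adjusted p = 0.0706), and without cyclic replicate 2 (adjusted p = 0.0564). The day 15 call was lost in 5 of the 6 fits that left out 1 array, all but that without pregnant replicate 2 (adjusted p = 0.0575 to 0.147).

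PSMB2, a beta ring subunit without a catalytic site, had tight groups. Its cyclic arrays read 9.73, 9.72 and 9.63 on day 15 and its pregnant arrays 10.16, 10.06 and 10.12, a rise of 0.42 ± 0.071 (adjusted p = 0.000721). On day 18 the values were 10.64, 10.56, 10.58 and 10.48 against 10.77, 10.92, 11.05 and 10.93, a rise of 0.35 ± 0.061 (adjusted p = 0.000292). Every pregnant array lay above every cyclic array on both days. A second probe set for PSMB2 rose by 0.47 ± 0.074 and 0.32 ± 0.064 on these days.

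The 3 catalytic subunits were PSMB5, PSMB6 and PSMB7. PSMB6, which carries the caspase-like site, read 9.12, 9.22 and 9.25 in cyclic arrays of day 15 and 9.62, 9.54 and 9.74 in pregnant arrays, a rise of 0.44 ± 0.079 (adjusted p = 0.00156). On day 18 it read 10.43, 10.30, 10.19 and 10.32 against 10.45, 10.72, 10.73 and 10.68, a rise of 0.34 ± 0.068 (adjusted p = 0.00137). The pregnant arrays lay above the cyclic arrays on both days, on day 18 with 10.45 against 10.43 for the nearest pair. PSMB7, which carries the trypsin-like site, rose by 0.24 ± 0.063 on day 15 (adjusted p = 0.0256), and its difference on day 18 was 0.14 ± 0.055 (adjusted p = 0.0675), which passed without probe sets of mean below 5 (adjusted p = 0.0495) or without cyclic replicate 1 (adjusted p = 0.0427). The day 15 call was lost without cyclic replicate 2 or 3 and without pregnant replicate 1 or 3 (adjusted p = 0.051 to 0.12). PSMB5, which carries the chymotrypsin-like site, passed on neither day, with 0.26 ± 0.082 on day 15 (adjusted p = 0.0691, and 0.0462 with array weights) and 0.02 ± 0.071 on day 18. The immunoproteasome partners of these sites are given with the related genes.

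Among the alpha ring genes, PSMA7 rose by 0.33 ± 0.077 on day 15 and 0.28 ± 0.067 on day 18, and PSMA5 rose by 0.27 ± 0.058 and 0.36 ± 0.050. The day 15 call of PSMA7 was lost without cyclic replicate 2 or pregnant replicate 3 (adjusted p = 0.078 and 0.0754). PSMA3 rose by 0.29 and 0.18, and PSMA6 rose by 0.33 on day 18, with a day 15 difference of 0.18 that did not pass. PSMA4 passed on neither day, with 0.28 and 0.27. In the beta ring, PSMB4 rose by 0.33 and 0.29, and PSMB1 passed on neither day, with 0.20 and 0.11. Averaged over the 13 core genes, the pregnant arrays exceeded the mean of the cyclic arrays of their day by 0.27 to 0.40 on day 15 and by 0.14 to 0.31 on day 18, while single cyclic arrays lay within -0.08 and 0.08 of that mean.

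**Figure D2:**
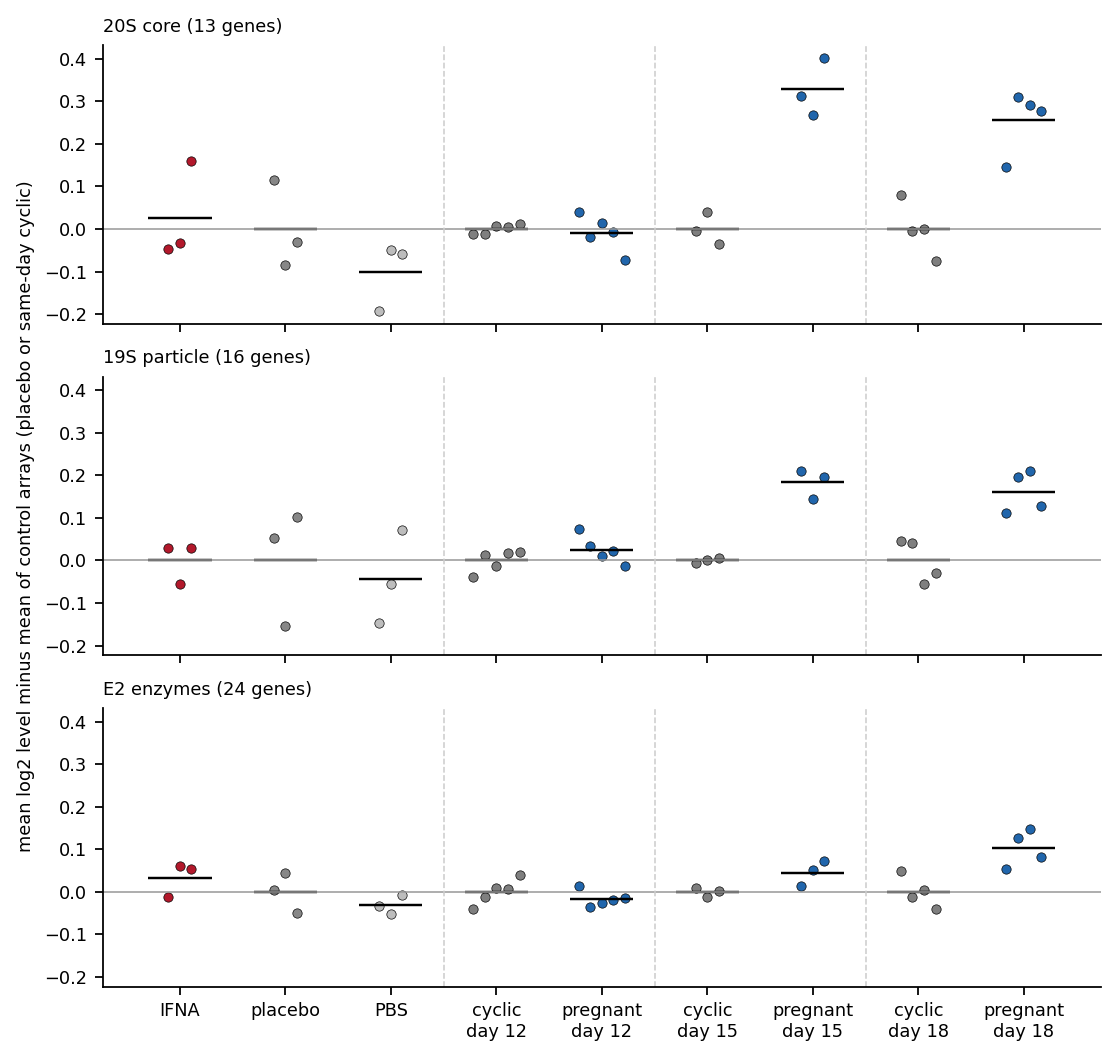
Mean log2 level of the 20S core, 19S particle and E2 genes in each array, minus the mean of the control arrays of its set (placebo, or cyclic animals of the same day), with 1 point per array and a line at the group mean. The core mean of pregnant arrays is 0.27 to 0.40 on day 15 and 0.14 to 0.31 on day 18, whereas IFNA arrays run from -0.05 to 0.16 among placebo arrays at -0.08 to 0.12.

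The 19S particle had smaller median differences than the core. On day 15, 3 of its 16 genes rose (median 0.13, all 16 above 0), and on day 18, 5 of 16 rose (median 0.13, 14 above 0). PSMD14, the deubiquitinase that cuts ubiquitin chains off proteins entering the core, had the largest rise among them on both days. In cyclic arrays of day 15 it read 9.15, 9.19 and 9.22 and in pregnant arrays 9.73, 9.62 and 9.68, a rise of 0.49 ± 0.081 (1.40-fold, adjusted p = 0.000615). On day 18 it read 9.70, 9.49, 9.48 and 9.45 in cyclic arrays and 9.93, 10.13, 10.29 and 9.97 in pregnant arrays, a rise of 0.55 ± 0.070 (1.46-fold, adjusted p = 7.58e-06). Pregnant and cyclic arrays did not overlap on either day, and the call held in each fit that left out 1 array of these groups.

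Of the 6 ATPases, which unfold the substrate, PSMC3 rose by 0.41 ± 0.079 on day 15 and 0.34 ± 0.068 on day 18, and PSMC4 rose by 0.30 and 0.24. PSMC1 and PSMC6 did not pass, with 0.10 and 0.13 on day 15 and 0.03 and 0.19 on day 18. A second probe set for PSMC6 was at -0.01 on day 15 and 0.075 on day 18, also not past the threshold. The scaffold subunit PSMD1 rose by 0.31 ± 0.084 and PSMD11 by 0.23 ± 0.061 on day 18. PSMD4, a receptor for ubiquitin chains, had differences of 0.05 ± 0.074 and -0.14 ± 0.064, neither past the threshold, and its second probe set fell by 0.19 on day 18. A second, weaker probe set for PSMC5 rose by 0.28 on day 18, where the one that stands for the gene differed by 0.08. PSMD10, an assembly factor, had differences of 0.33 ± 0.174 and 0.40 ± 0.151 that did not pass.

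PSMF1 changed more than any other of the 57 genes in each of 4 comparisons, 2 of pregnancy and 2 of interferon. It encodes PI31, known as an inhibitor of the 20S core in vitro. In pregnant arrays it read 10.02, 9.49 and 9.77 on day 15 and 10.49, 10.54, 10.97 and 10.52 on day 18. In cyclic arrays it read 8.55, 8.43 and 8.47 on day 15 and 9.28, 9.36, 9.20 and 9.18 on day 18. The groups were far apart on both days, with rises of 1.28 ± 0.120 (2.42-fold, adjusted p = 1.82e-07) and 1.38 ± 0.104 (2.59-fold, adjusted p = 2.28e-09). On day 12 the pregnant arrays read 8.44, 8.70, 8.50, 8.61 and 8.60 and the cyclic arrays 8.74, 8.53, 8.61, 8.61 and 8.75, overlapping, with a difference of -0.08 ± 0.093.

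After interferon, PSMF1 read 10.12, 10.04 and 10.28, against 8.81, 8.85 and 8.95 with placebo and 8.73, 8.67 and 8.74 with PBS. No IFNA array came within 1 log2 unit of a control array. The rise was 1.28 ± 0.097 over placebo (2.42-fold, adjusted p = 0.000227) and 1.43 ± 0.097 over PBS (2.70-fold, adjusted p = 0.000143), and placebo differed from PBS by 0.16 ± 0.097. The 2 interferon comparisons share the IFNA arrays. The rise with IFNA minus the pregnancy effect was 0.00 ± 0.159 for day 15 (95% interval -0.33 to 0.33) and -0.10 ± 0.149 for day 18 (-0.40 to 0.21). Leaving out any 1 array of the groups compared kept the PSMF1 rises between 1.15 and 1.49. PSMF1 is measured by 1 probe set.

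**Figure D3:**
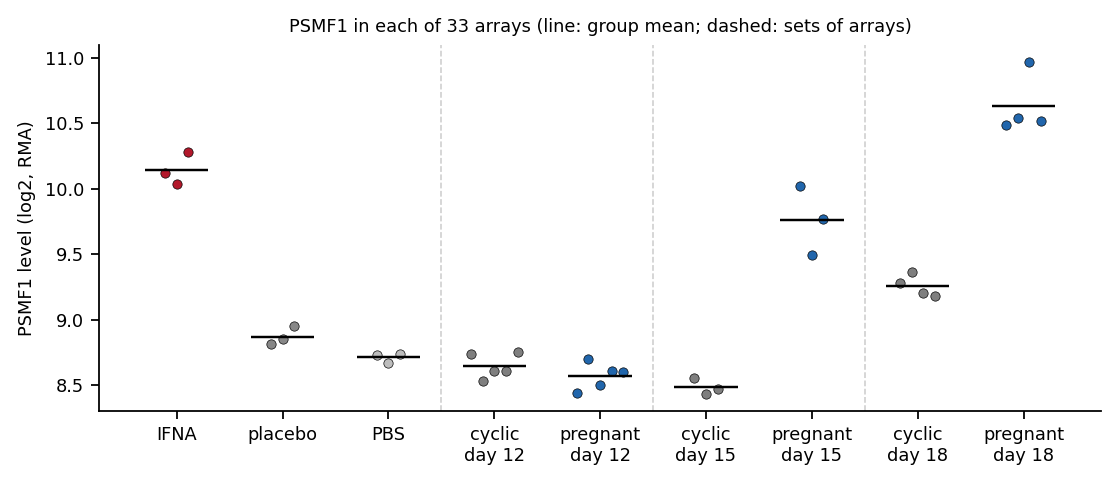
Log2 level of PSMF1 in each of the 33 arrays by group, with a line at the group mean and dashed lines between sets of arrays that appeared to be normalised separately. IFNA arrays (10.04 to 10.28) lie above placebo and PBS (8.67 to 8.95), and pregnant arrays of days 15 and 18 lie above the cyclic arrays of their day, while those of day 12 overlap.

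The assembly chaperones of the core were split on day 18. PSMG1 and PSMG2 form a heterodimer that builds the alpha ring. PSMG2 read 9.48, 9.16, 9.31 and 9.24 in cyclic arrays and 9.75, 10.22, 9.68 and 9.80 in pregnant arrays of day 18, a rise of 0.56 ± 0.102 (1.48-fold, adjusted p = 0.000416) with no overlap. On day 15 its arrays read 8.92, 8.83 and 8.82 against 8.81, 9.10 and 9.15, overlapping, with a difference of 0.16 ± 0.117. PSMG1 fell by 0.23 ± 0.082 on day 18 (adjusted p = 0.0475), a call that was lost in 7 of the 8 fits that left out 1 array, all but that without pregnant replicate 4 (adjusted p = 0.0649 to 0.129). PSMG3 passed on neither day, with 0.05 and 0.16.

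Of the 24 E2 enzymes, 1 rose on day 15 (median of the 24, 0.07), and on day 18, 6 rose and 2 fell (median 0.16). The single rise of day 15 and the 2 falls of day 18 are near the shares over all genes given above. UBE2G2, an E2 of the pathway that degrades misfolded proteins of the endoplasmic reticulum, was the one that rose on day 15. It read 7.78, 7.62 and 7.29 in cyclic and 7.97, 8.04 and 8.07 in pregnant arrays of day 15, a rise of 0.46 ± 0.117 (adjusted p = 0.0226). On day 18 the arrays read 8.08, 8.10, 8.05 and 7.75 against 8.31, 8.58, 8.55 and 8.33, a rise of 0.45 ± 0.102 (adjusted p = 0.00333). The groups did not overlap on either day. The other probe set for UBE2G2 differed the opposite way, by -0.17 ± 0.151 and -0.09 ± 0.131, and the mean of both probe sets did not pass on either day (0.15 and 0.18). The day 15 call was lost in 5 of the 6 fits that left out 1 array, all but that without cyclic replicate 1 (adjusted p = 0.0536 to 0.136).

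UBE2N, with the catalytically inactive partners UBE2V1 and UBE2V2, builds ubiquitin chains that signal rather than mark for degradation. All 3 rose on day 18, UBE2N by 0.19 ± 0.059, UBE2V1 by 0.17 ± 0.059 and UBE2V2 by 0.34 ± 0.078, with adjusted p of 0.0299, 0.0422 and 0.00345. The day 18 call of UBE2V1 was lost when replicate number was added to the fit. A second probe set for UBE2V2 rose by 0.28 on that day. On day 15 the differences were 0.19, 0.10 and 0.24, none past the threshold. The call for UBE2N was lost in 5 of the 8 fits that left out 1 array, those without cyclic replicate 2, 3 or 4 or pregnant replicate 3 or 4 (adjusted p = 0.0579 to 0.105).

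UBE2D3, an E2 that works with many ligases, rose by 0.18 ± 0.045 on day 18, and UBE2F, which carries the ubiquitin-like protein NEDD8, rose by 0.16 ± 0.053. The UBE2F call of day 18 was lost when replicate number was added to the fit. UBE2E3 fell by 0.26 ± 0.075 and UBE2T, which acts in DNA crosslink repair, fell by 0.20 ± 0.070 on that day (adjusted p = 0.0198 and 0.0454). The fall of UBE2E3 was lost without cyclic replicate 2 or pregnant replicate 3 or 4 (adjusted p = 0.0533 to 0.0793). That of UBE2T was lost in 6 of the 8 fits that left out 1 array, all but those without cyclic replicate 1 or pregnant replicate 3 (adjusted p = 0.0736 to 0.15). UBE2L3, UBE2S and UBE2D2 did not pass on either day, with -0.08, 0.02 and -0.13 on day 15 and -0.07, 0.15 and 0.06 on day 18. The probe set that stands for UBE2H differed by -0.14 on day 18 without passing, while its second, weaker probe set rose by 0.48.

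**Figure D4:**
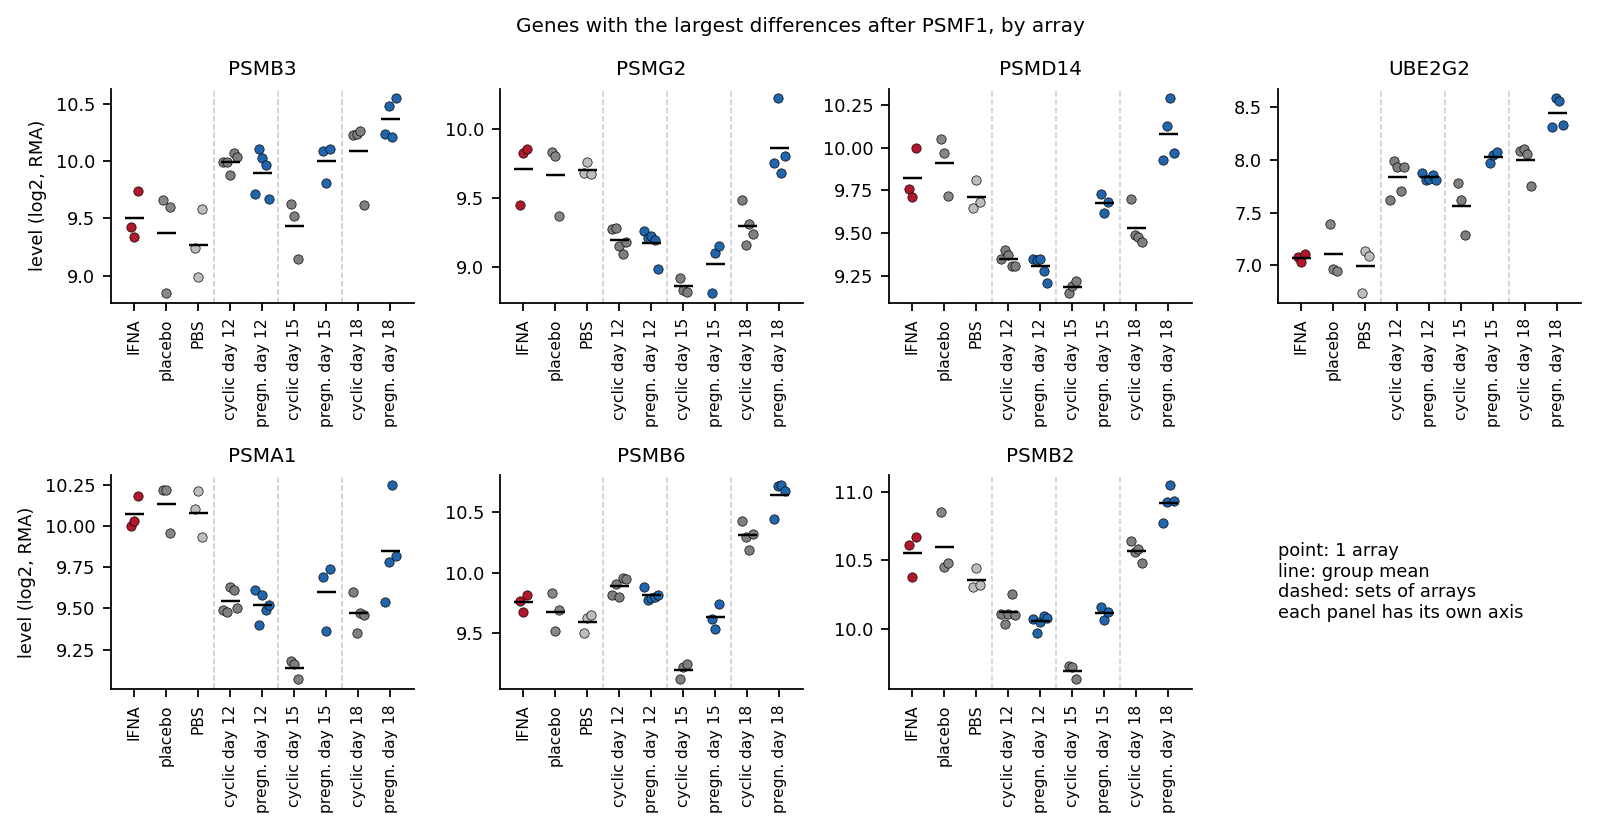
Log2 level in each array of the 7 genes with the largest differences after PSMF1. They were ranked among genes past the threshold between pregnant and cyclic animals or between IFNA and placebo. Each panel holds 1 gene, with 1 point per array, a line at the group mean and dashed lines between sets of arrays. Pregnant arrays of day 15 lie above the cyclic arrays in the panels of PSMB3, PSMD14, UBE2G2, PSMA1, PSMB6 and PSMB2, and PSMG2 separates on day 18 only.

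Day 12 showed no difference past the threshold. None of the 57 genes rose or fell, against 0% and 0.0109% of all genes, and 3 had an unadjusted p below 0.05, against 6.78% of all genes. Those were PSMD11 (0.15 ± 0.055), PSMC2 (0.12 ± 0.047) and PSMC3 (0.15 ± 0.061), with adjusted p of 0.632 to 0.702. The core mean of the pregnant arrays lay between -0.07 and 0.04 of the cyclic mean. PSMD14 read 9.21 to 9.35 in pregnant and 9.31 to 9.40 in cyclic arrays, a difference of -0.04 ± 0.063.

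Whether the pregnancy effect changed from one day to the next was tested as an interaction. From day 12 to day 15 the effect grew for 5 genes and shrank for none, against 1.96% and 0.579% of all genes. PSMF1 grew by 1.35 ± 0.152 (adjusted p = 4.73e-06), PSMD14 by 0.53 ± 0.103, PSMB6 by 0.51 ± 0.100, PSMB2 by 0.49 ± 0.089 and PSMB4 by 0.35 ± 0.076. The PSMB4 call was lost without cyclic replicate 2 (adjusted p = 0.0643) or pregnant replicate 3 (adjusted p = 0.0613) of day 15. The 5 lie in the inhibitor, the lid of the 19S particle and the beta ring. None of the 24 E2 genes was among them, which is near the share of 1.96% over all genes. From day 15 to day 18 none of the 57 passed, against 0.218% and 0.0328% of all genes, and 3 had an unadjusted p below 0.05, against 9.59% of all genes. Those were PSMG2 (0.40 ± 0.155), UBE2D2 (0.19 ± 0.082) and PSMB5 (-0.24 ± 0.108). These comparisons share the day 15 arrays with the comparisons above and with each other, and day and part of the horn cannot be told apart.

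PSMF1 was the 1 gene of the 57 that rose with IFNA. Against placebo 1 gene rose and none fell, where 1.11% of all genes rose and 0.0218% fell, and against PBS 1 rose and none fell, where 0.994% rose and 0.218% fell. Without IFNA replicate 1, UBE2J1 passed as well (0.74, adjusted p = 0.0473). The median difference of the 57 genes was 0.02 against placebo and 0.07 against PBS. Every IFNA array lay above every placebo array for 2 genes (PSMF1 and PSMA6) and below for 1 (PSMD6), against 6.87% and 4.99% of all genes. Every IFNA array lay above every PBS array for 9 genes and below for none, against 8.33% and 9.08% of all genes. Placebo against PBS gave no call, as for all genes (0% and 0%), and no unadjusted p below 0.05 among the 57, against 3.12% of all genes. Its 3 smallest p-values belonged to PSMB2 (0.24 ± 0.134), UBE2A (0.22 ± 0.129) and UBE2E2 (-0.37 ± 0.219).

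None of the 13 core genes passed after interferon. Against placebo their median was -0.01, with 6 above 0 and 1 at an unadjusted p below 0.05 (10% of all genes). Against PBS the median was 0.16, with 9 above 0 and 2 at an unadjusted p below 0.05 (11.2% of all genes). The intervals had a median reach of 0.28 to each side of the difference over the 57 genes, compared with 0.17 for pregnancy on day 15. Against placebo PSMB6 differed by 0.08 ± 0.107 (95% interval -0.17 to 0.32), PSMA1 by -0.06 ± 0.118 (-0.33 to 0.20) and PSMA7 by -0.16 ± 0.114 (-0.42 to 0.10). PSMB5 differed by -0.16 ± 0.150 and PSMB7 by -0.04 ± 0.140. PSMA6 and PSMA5 had the largest positive values of the core, 0.23 and 0.23, with adjusted p of 0.571 and 0.658.

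PSMD14 read 9.76, 9.71 and 10.00 with IFNA, 10.05, 9.97 and 9.72 with placebo and 9.65, 9.81 and 9.68 with PBS, so the groups overlapped and the difference from placebo was -0.09 ± 0.124 (-0.37 to 0.19). UBE2G2 read 7.08, 7.03 and 7.11 with IFNA and 7.39, 6.97 and 6.95 with placebo. Among the E2 genes, UBE2J1, a membrane-bound E2 of the endoplasmic reticulum, had the largest value, 0.50 ± 0.197 (adjusted p = 0.513). The GAPDH signal difference in the biopsies was 1.66 to 2.98 with IFNA, 1.03 to 3.87 with placebo and 1.59 to 3.30 with PBS. With this difference as a covariate, or without the array of lowest difference in each group, PSMF1 was still the 1 gene called. Of the leukocyte markers 1 of 6 rose with IFNA over placebo (CSF1R, 1.12 ± 0.188), and none passed over PBS (CSF1R, 0.74 ± 0.188). The leukocyte mean was 7.30 to 7.48 with IFNA, 6.61 to 7.21 with placebo and 7.05 to 7.26 with PBS. Of the 4 endothelial markers none passed over placebo and PECAM1 fell by 1.01 ± 0.153 over PBS, with list means of 5.93 to 6.19, 6.13 to 6.41 and 6.398 to 6.48 in the same order. The part of these markers in the PSMF1 result was not tested.

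**Figure D5:**
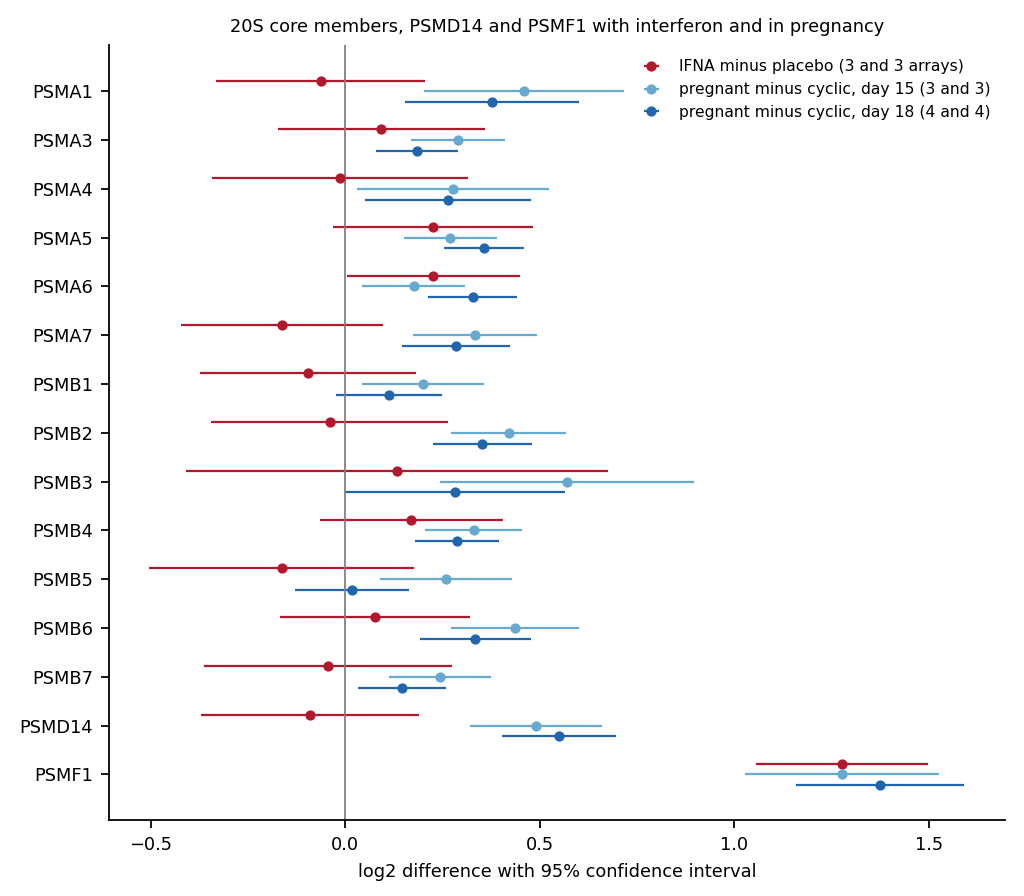
Log2 differences with 95% confidence intervals for the 13 core genes, PSMD14 and PSMF1, for IFNA minus placebo and for pregnant minus cyclic animals on days 15 and 18. PSMF1 lies between 1.28 and 1.38 in all 3 comparisons, whereas PSMD14 is at -0.09 with IFNA and at 0.49 and 0.55 in pregnancy, and most core genes have wide interferon intervals that include 0.

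The difference between the interferon effect and the pregnancy effect was tested directly over all 33 arrays, with 1 spread per gene for all groups. The SD of PSMD14 within groups ran from 0.035 (cyclic day 15) to 0.172 (placebo), with 0.155 for IFNA. The intervals of this fit do not allow for a wider spread in the biopsies. Against day 15, 1 of the 57 genes was lower with IFNA and none was higher, where 0.284% of all genes were lower and 0.218% higher. That gene was PSMD14, at -0.58 ± 0.131 (95% interval -0.85 to -0.31, adjusted p = 0.0399). Against day 18, 2 were lower and none higher, where 1.06% and 0.393% of all genes were. They were PSMD14, at -0.64 ± 0.122 (-0.89 to -0.39, adjusted p = 0.00683), and PSMA7, at -0.45 ± 0.113 (adjusted p = 0.0462). The median over the 57 genes was -0.09 for day 15 and -0.13 for day 18. At an unadjusted p below 0.05, counting both directions, there were 17 genes for day 15 and 14 for day 18, against 15.6% of all genes for each.

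With only the arrays compared in the fit, limma called none of the 57 genes for either day. Counting both directions, 9 and 10 had an unadjusted p below 0.05 in that fit, against 10% and 10.8% of all genes. With array weights 7 were called for each. For day 15 the PSMD14 call was lost in 9 of the 12 fits that left out 1 array and kept without IFNA replicate 3 or placebo replicate 2 or 3, and 4 genes were called without placebo replicate 2 and 2 without placebo replicate 3. For day 18 the PSMA7 call was lost in 9 of 14 such fits and kept without IFNA replicate 3, placebo replicate 2 or 3, cyclic replicate 1 or pregnant replicate 1. The PSMD14 call of day 18 was lost in none of the 14, and 6 genes were called without placebo replicate 3. Core genes that missed the threshold for day 15 included PSMA7 (-0.50 ± 0.120, adjusted p = 0.0629) and PSMB2 (-0.46 ± 0.128, adjusted p = 0.106). The biopsies and the slaughter samples also differ in day, sampling method, GAPDH signal difference and set of arrays, and these cannot be told apart from the difference between experiments, although each effect is taken against controls of its own set.

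Related genes outside the set were examined in 4 lists. Of 7 genes of the immunoproteasome, its activators and interferon-linked conjugation, all 7 rose on day 15 and on day 18 (medians 0.79 and 0.83). Over all genes 4.04% and 12.6% rose on these days. UBA7, the E1 enzyme for the modifier ISG15, rose by 3.26 ± 0.188 and 3.22 ± 0.163, and UBE2L6, its E2 enzyme, by 1.33 ± 0.175 and 1.47 ± 0.151. PSMB9, which replaces PSMB6 in the immunoproteasome, rose by 0.80 ± 0.123 and 1.02 ± 0.107. On day 15 PSME2, a subunit of the activator cap, rose by 0.79, and on day 18 PSMB8, which replaces PSMB5, rose by 0.83. After interferon 2 of the 7 rose over placebo, UBA7 by 2.96 ± 0.116 and UBE2L6 by 1.22 ± 0.100, and over PBS PSMB9 rose as well, by 1.21 ± 0.212. The median of the 7 was 0.76 over placebo, all 7 were above 0, and all 7 had an unadjusted p below 0.05, against 10% of all genes.

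Of 12 other proteasome genes measured out of 17 listed, 1 rose on day 15, and 2 rose and 1 fell on day 18. USP14, a deubiquitinase bound to the 19S particle, rose by 0.39 ± 0.096 and 0.53 ± 0.083. NFE2L2, a transcription factor of the oxidative stress response, rose by 0.21 ± 0.073 on day 18, and PAAF1, which binds 19S ATPases, fell by 0.20 ± 0.065. Of 6 ubiquitin and E1 genes measured out of 12, UBA3, a subunit of the E1 enzyme for NEDD8, rose by 0.42 ± 0.072 on day 18. None of 10 shuttle and unfoldase genes measured out of 13 passed on either day, and none of these 3 lists had a gene past the threshold after interferon over placebo. For lists of this size these counts are near the shares over all genes. Those were 4.04% higher and 2.34% lower on day 15, 12.6% and 10.4% on day 18, and 1.11% and 0.0218% for IFNA over placebo.

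Cyclic animals were also compared between days, after quantile normalisation over the 24 slaughter arrays, because the deposited values of the days were on different scales. From day 12 to day 15, 21 of the 57 genes were higher and 9 lower, against 27.3% and 24.8% of all genes. From day 15 to day 18, 8 were higher and 20 lower, against 21% and 17.6% of all genes. With the deposited values the counts were 4 higher and 34 lower for the first step and 53 higher and none lower for the second. With each array centred on its median they were 24 and 9 for the first and 3 and 33 for the second, so no direction is drawn for the set. The largest differences from day 12 to day 15 were 0.73 for PSMB1, 0.63 for UBE2V2, 0.55 for PSMC3 and 0.52 for PSMB7 on the higher side, and -0.62 for UBE2E2, -0.53 for UBE2L3 and -0.52 for UBE2N on the lower side. From day 15 to day 18, UBE2V2 (-0.63) and PSMD11 (-0.55) were lowest and PSMB6 (0.54) highest. With the deposited values UBE2V2 was at 0.008 and PSMD11 at 0.009, neither past the threshold, and PSMB6 at 1.11. PSMF1 did not pass in either step, with 0.13 and 0.15, whereas with the deposited values it was at -0.17 (adjusted p = 0.196) and 0.77 (adjusted p = 1.9e-06).

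For some genes the probe sets disagreed between days. For UBE2H they passed in opposite directions from day 12 to day 15 (0.23 and -0.49), and for UBE2D4 from day 15 to day 18 (-0.28 and 0.76). UBE2V2's second probe set differed by 0.01 from day 12 to day 15, where the first was at 0.63. That of PSMC6 differed by 0.03 from day 12 to day 15 and 0.10 from day 15 to day 18, where the first was at 0.42 and -0.44. From day 15 to day 18 the second probe set of PSMB2 was at -0.01, where the first was at 0.32. The day of the cycle, the part of the horn and the set of arrays change together in these comparisons and cannot be told apart.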

How the data were processed

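Biotin-labelled RNA from 33 endometrial samples was hybridised to Affymetrix GeneChip Bovine Genome Arrays, per the labels' protocols. The authors deposited log2 expression values made by RMA (package affy), per the submitters' processing notes; versions are not given in the sources used here. Sorted values matched within 4 sets of arrays (SD of a sorted value at most 0.067) and less well overall (0.334), from which separate normalisation was inferred. Precision is limited by how many arrays there were, with a median standard error of 0.147 in the biopsies and 0.0906, 0.117 and 0.101 for pregnancy on days 12, 15 and 18.

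Of 24128 probe sets 112 controls were left out. Symbols came from the array annotation (13292 probe sets with 1 symbol, 86 with several, 10638 with none) and were updated through RefSeq gene identifiers where these matched (13263). Gene sequences were not used here.

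Models with 1 mean per group were fitted with limma 3.58.1 (lmFit, eBayes) in R 4.3.3, on the 9 biopsy arrays, the 24 slaughter arrays (after quantile normalisation for cyclic animals between days) or all 33, with two-sided tests and Benjamini-Hochberg adjustment over 24016 probe sets. Background shares are over 9155 genes. The fit was tested on simulated data.

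The genes and lists were chosen with earlier results of these data known. Text names, per comparison, up to 8 largest rises and falls past the threshold (otherwise the 3 smallest p-values), a fixed set of genes and up to 4 genes per list. Each array is a separate animal. Same-numbered replicates of a comparison did not pair (correlations of deviations -0.337 to 0.368), and no arrays were identical (0 of 528 pairs). Alternatives were quantile normalisation, a mean log2 filter of 5, only the arrays compared, array weights, the mean over probe sets, a replicate block and leaving out each array. Further ones were deposited values for days of the cycle and the fits with the GAPDH signal, given with the interferon results. Leaving out the array of lowest GAPDH difference in each group was chosen after seeing the data.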

Additional observations from a re-analysis of the deposited data

Results flagged for a closer look

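In 5 of 32 groups of 4 or 5 arrays examined for the genes with per-array values, 1 array lay far from the others. How often chance gives such an array was not tested. Pregnant day 18 replicate 3 read 10.97 for PSMF1, above the other 3. Among cyclic arrays of day 18, replicate 4 was low for PSMB3 (9.62) and for UBE2G2 (7.75), and replicate 1 was high for PSMD14 (9.70). Pregnant day 12 replicate 5 was low for PSMG2 (8.98).

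In 8 further results the effect differed between groups by an interaction test. The pregnancy effect grew from day 12 to day 15 for PSMF1 (1.35), PSMD14 (0.53), PSMB6 (0.51), PSMB2 (0.49) and PSMB4 (0.35). The IFNA effect was below the pregnancy effect of day 15 for PSMD14 (-0.58) and below that of day 18 for PSMD14 (-0.64) and PSMA7 (-0.45). Leaving out 1 array lost the day 15 call of PSMD14 in 9 of 12 fits and the call of PSMA7 in 9 of 14. None of these IFNA calls held with only the arrays compared in the fit.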

How the results depend on the processing

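PSMF1 kept its direction and its call in every alternative run for the comparisons of pregnant with cyclic animals on days 15 and 18 and of IFNA with placebo and PBS. Fits to only the arrays compared use fewer arrays to estimate the spread. They lowered the genes called to 3 on day 15, 15 on day 18 and 0 for the IFNA effect against either pregnancy effect. For IFNA against placebo they left 1, and for the change from day 12 to day 15 they gave 6 in place of 5. The cause was not tested. For the IFNA effect against the pregnancy effects of days 15 and 18, array weights gave 7 and 7 genes, the replicate block 0 and 1, and quantile normalisation 1 for day 18; the cause was not tested. With deposited values, 53 genes were higher and none lower in cyclic animals from day 15 to day 18. In that setting the sign turned for 21 of the 57 genes from day 12 to day 15 and for 36 from day 15 to day 18. Among genes named and past the threshold in either fit, it turned in the first step for PSMA7 (-0.21), PSMB5 (-0.28), PSMD4 (-0.085) and PSMG1 (-0.21). It turned in the second for UBE2V2 (0.008), PSMD11 (0.009), PSMC6 (0.15), PSMD4 (0.16), PSMA7 (0.13), PSMA4 (0.30), UBE2D4 (0.49), UBE2K (0.36), PSMA1 (0.33), PSMB5 (0.47), PSMB7 (0.32), PSMC1 (0.45), PSMD14 (0.34), UBE2D2 (0.46) and UBE2T (0.51). Taking the mean over probe sets turned UBE2D4 to 0.24 there. Leaving out 1 array gave 1 to 2 genes for IFNA against placebo, 8 to 14 for day 15, 16 to 27 for day 18, 4 to 6 for the change from day 12 to day 15, 24 to 30 and 23 to 27 for cyclic days, and 0 to 4 and 1 to 6 for the IFNA effect against the pregnancy effects. The replicate block ended the call of PSMB3 on day 15 (adjusted p = 0.0595) and gave 14 calls there, 13 of them shared with the reported fit. On day 18 it gave 23 calls, 22 of them shared, and ended those of UBE2F and UBE2V1. Same-numbered arrays share only a number. Over all genes named, settings and comparisons, 3350 values kept sign and side of the threshold, 150 below the threshold throughout turned sign, 117 lost and 26 gained a call, and 20 past the threshold in either fit turned sign. The number of arrays and their spread limit the precision. The 95% interval of a difference between IFNA and placebo reached a median of 0.279 to each side, compared with 0.167 for pregnancy on day 15.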
